A study of Nicotiana tabacum with 12 samples.

Results

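The comparison described here sets tobacco (Nicotiana tabacum) root libraries titled TCR against root libraries titled CR, with 3 libraries on each side and 6 of the 12 libraries of the series in all. The members were taken by title, in a choice made with earlier results of these data known. The gene models compared were the 19942 of 25273 that had a mean of at least 1 FPKM over these 6 libraries. FPKM scales the sequenced fragments of a model to its transcript length and to all mapped fragments of the library. All 12 libraries carry one treatment text, which names an NtLHT1 mutant of tobacco and 15 days in hydroponic low nitrogen solution. The labels do not say what the codes TCR, CR, TWTR and WTR stand for, so no genotype or nitrogen supply was given to either side, and every group is called by its code. The labels do not say that replicates were separate plants or how many plants a library pooled, so p-values measure the spread between libraries, which may be technical.

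LHT1, lysine histidine transporter 1, is known from Arabidopsis as an importer of amino acids in the plasma membrane that takes amino acids up into root cells and from the leaf apoplast into mesophyll cells. Roots of nitrogen-starved plants are known for raising the uptake of nitrate, ammonium and organic nitrogen and for altering root growth. The table gives identifiers of the Nitab4.5 series with no gene names, and 0 of 25273 were found in the RefSeq table of assembly ASM71507v2. Gene models are therefore described by level, by difference and by place on their scaffold, and 2 that rose and 2 that fell are given by identifier. NtLHT1 itself, the nitrogen uptake genes and markers of root cell types could not be looked up, and the label of the tissue was not checked against markers.

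Deposited FPKM summed to 1125480 to 1141500 in the TCR libraries and to 1129380 to 1154690 in the CR libraries. Absolute depth is unknown. From the ratios of the lowest values, with CR replicate 1 set to 1, CR replicate 2 was the deepest of the 6 libraries, at 1.61 to 1.81 depending on the floor set on those values, and the other libraries lay between 0.934 and 1.19. Libraries of one group correlated at 0.979 to 0.981 in TCR and 0.974 to 0.982 in CR on log2(FPKM + 1), and libraries of different groups at 0.929 to 0.945.

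The root transcriptomes of TCR and CR differed in 8088 gene models, or 40.6% of those tested (limma on log2(FPKM + 1), fitted to these 6 libraries, Benjamini-Hochberg adjusted p under 0.05). In TCR, 3720 models (18.7% of those tested) were higher and 4368 (21.9%) were lower. The models that were higher held 33.6% ± 0.285 of the FPKM sum in TCR and 20.2% ± 0.1 in CR, and those that were lower held 22.5% ± 0.178 in TCR and 35.6% ± 0.651 in CR (SD, n = 3 each). These shares describe the models the test picked and are not a further test. Falls outnumbered rises more among large differences than among all calls. At 1.5-fold or more there were 1513 rises and 2279 falls, at 2-fold or more 587 and 1014, at 4-fold or more 64 and 173, and at 8-fold or more 13 and 33. Of the calls, 4296 (53.1%) were of less than 1.5-fold. Without any overlap between the libraries of the groups, 5115 models (25.6% of those tested) were higher and 5650 (28.3%) lower in TCR. Another 199 models differed by 2-fold or more and missed the threshold, 102 of them higher and 97 lower in TCR. With quantile normalization the order of the counts turned, to 4321 higher and 3901 lower in all, while 2-fold falls still outnumbered 2-fold rises, at 919 against 667. With a pseudocount of 5 in place of 1, the 2-fold counts were 339 rises and 576 falls.

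**Figure D1:**
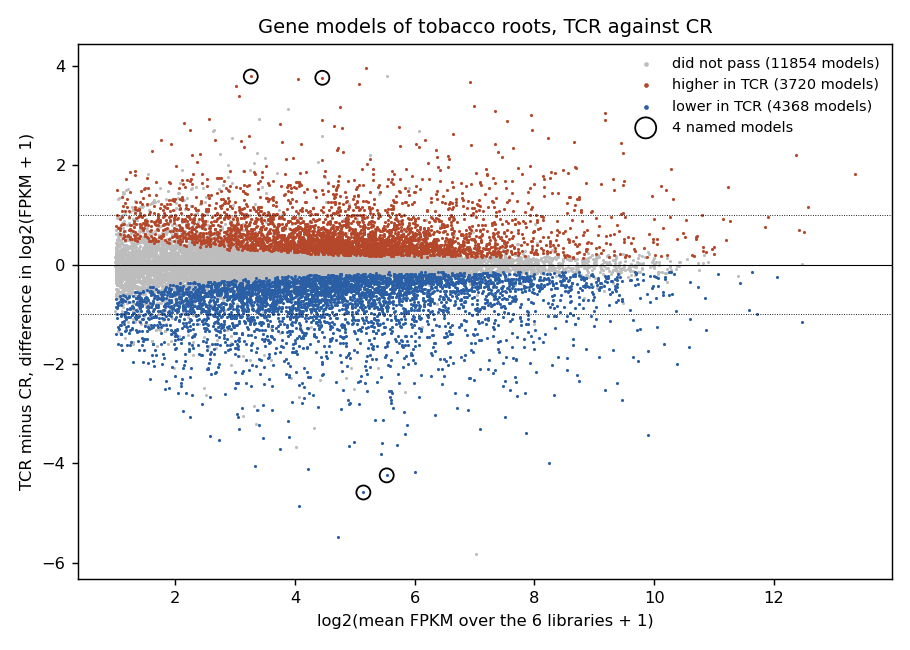
Each point is one of the 19942 gene models tested; the x axis is log2(mean FPKM over the 6 libraries + 1) and the y axis the TCR minus CR difference in log2(FPKM + 1), with dotted lines at 2-fold. The lower side of the cloud reaches further from 0 than the upper, with 173 models lower and 64 higher in TCR by 4-fold or more, and the circles mark the 4 models given by identifier.

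The excess of large falls was present at every level, but it was smallest among abundant transcripts. Of the 4179 models averaging 1 to 5 FPKM over the libraries compared, 114 (2.73%) were at least 2-fold higher and 221 (5.29%) at least 2-fold lower in TCR. At 5 to 20 FPKM the counts were 163 (2.46%) and 335 (5.05%) of 6638, and at 20 to 100 FPKM 187 (2.72%) and 318 (4.63%) of 6875. Among the 2250 models at 100 FPKM or more, 123 (5.47%) were at least 2-fold higher and 140 (6.22%) at least 2-fold lower. Counting calls of any size, the class of 20 to 100 FPKM held more rises than falls, at 1735 (25.2%) against 1643 (23.9%), whereas the class of 100 FPKM or more held 534 rises (23.7%) and 737 falls (32.8%). The median standard error of a log2 difference was 0.194 in the lowest class and 0.0641 in the highest, so small differences could pass more readily in abundant models. With 1 FPKM added before the log, a 2-fold difference asks for a larger ratio of FPKM in low models than in abundant ones. The classes are therefore not compared at the same FPKM ratio. These class counts were not computed under other scalings or pseudocounts.

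**Figure D2:**
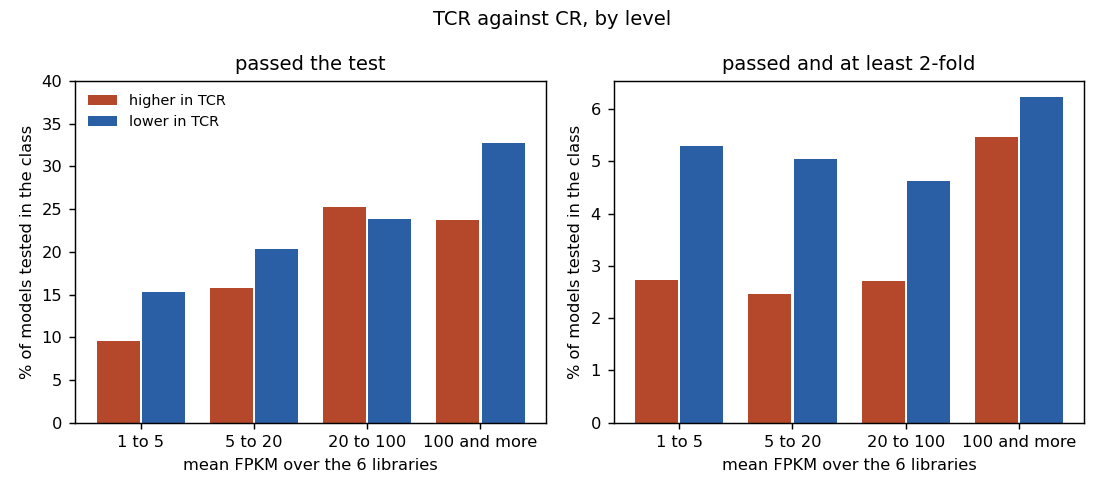
Bars give the percentage of the models tested in each class of mean FPKM that were higher (red) or lower (blue) in TCR, for all calls on the left and for calls of at least 2-fold on the right. The 2-fold falls exceed the 2-fold rises in each class, by 6.22% against 5.47% at 100 FPKM or more and by 5.29% against 2.73% at 1 to 5 FPKM.

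Among models above 0 in all 6 libraries, without overlap of the groups and averaging 5 FPKM or more in whichever group was higher, Nitab4.5_0000790g0050 had the largest log2 difference on the log2(FPKM + 1) scale. It stood at 14.01, 19.76 and 16.91 FPKM in TCR, against 0.28, 0.34 and 0.24 FPKM in CR. Every TCR library was far above every CR library, and the log2 difference was 3.79 (95% confidence interval 3.43 to 4.14, SE 0.152, limma adjusted p 2.41e-06). In the other libraries it stood at 17.66, 16.09 and 10.19 FPKM in TWTR and at 1.38, 1.24 and 1.73 FPKM in WTR, a log2 difference of 2.65 (SE 0.208, limma adjusted p 7.92e-05). The second rise was in Nitab4.5_0000028g0320, with 38.44, 39.99 and 41.13 FPKM in TCR against 2.79, 1.41 and 2 FPKM in CR. The groups were well apart here too (log2 difference 3.76, SE 0.161, limma adjusted p 3.04e-06). The order of these models was not stable: Nitab4.5_0000028g0320 had the larger difference with a pseudocount of 5 (2.67 against 2.04), after rescaling to TPM (3.71 against 3.65), without TCR replicate 2 (3.76 against 3.67) and without CR replicate 1 (3.92 against 3.78). The model reached 79.39, 80.93 and 89.86 FPKM in TWTR, its highest level, against 5.98, 4.96 and 6.66 FPKM in WTR (log2 difference 3.62, SE 0.108, limma adjusted p 1.81e-06). The pair of differences was itself compared in a fit of all 12 libraries, as (TCR minus CR) minus (TWTR minus WTR). Both models were picked for the TCR minus CR difference, which enters this interaction, so its value is partly built in. This interaction was 1.14 (SE 0.266, limma adjusted p 0.00712) for Nitab4.5_0000790g0050 and 0.13 (SE 0.204, limma adjusted p 0.666) for Nitab4.5_0000028g0320. With a pseudocount of 5 the first missed the threshold (0.46, limma adjusted p 0.0951) and the second turned and passed (-0.35, limma adjusted p 0.041); the second also turned without CR replicate 2 (-0.027, limma adjusted p 0.927).

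The largest fall on the same scale was in Nitab4.5_0000919g0090, with 1.45, 2.75 and 1.43 FPKM in TCR against 62.53, 69.77 and 67.98 FPKM in CR. All CR libraries were close together and all TCR libraries were below 3 FPKM, with a log2 difference of -4.59 (95% confidence interval -4.99 to -4.18, SE 0.172, limma adjusted p 2.03e-06). It was low in the remaining groups as well, at 4.08, 2.91 and 2.6 FPKM in TWTR and 0.73, 1.1 and 0.73 FPKM in WTR, where the small difference had the opposite sign (1.17, SE 0.2, limma adjusted p 0.00373). Nitab4.5_0000218g0070 followed, with 2.95, 3.47 and 4.61 FPKM in TCR against 93.16, 78.08 and 89.31 FPKM in CR (log2 difference -4.24, SE 0.137, limma adjusted p 1.16e-06). With a pseudocount of 5 the order of the falls turned, at -3.40 for Nitab4.5_0000218g0070 and -3.39 for Nitab4.5_0000919g0090. The groups did not overlap, and TWTR at 4.7, 4.42 and 1.79 FPKM and WTR at 2.09, 2.5 and 3.55 FPKM overlapped each other (log2 difference 0.27, SE 0.299, limma adjusted p 0.544). The interaction was -5.76 (SE 0.259, limma adjusted p 3.42e-08) for Nitab4.5_0000919g0090 and -4.51 (SE 0.357, limma adjusted p 3.32e-06) for Nitab4.5_0000218g0070. As with the rises, these values are partly built in by the choice of models.

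The 20 largest rises and the 20 largest falls under the same rule had different profiles over the series. The rises had log2 differences of 2.76 to 3.79, and their group means had a median of 46.4 FPKM in TCR against 4.89 FPKM in CR. The falls ran from -4.59 to -3.13, with a median of 5.37 FPKM in TCR against 79.5 FPKM in CR. The models were picked for CR values far from those of TCR. Every CR library lay below all TWTR and WTR libraries in 19 of the 20 rises and above them all in 19 of the 20 falls. With this choice of models the counts are partly built in, and the share over all models tested was not computed. The median of the means over the rises was 50.0 FPKM in TWTR and 21.2 FPKM in WTR, and over the falls 4.06 FPKM in TWTR and 8.11 FPKM in WTR. TWTR was within 2-fold of TCR, on FPKM + 1, in 16 rises and 17 falls. The share of all models tested with TWTR that close to TCR was not computed.

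WTR was split among these models. Its mean was within 2-fold of that of CR, on FPKM + 1, in 7 rises and 6 falls. It was at least 4-fold above that of CR, on FPKM + 1, in 11 of the 20 rises and at least 4-fold below it in 14 of the 20 falls. Adding 1 FPKM narrows the ratios of low models. Among the 7 rises, Nitab4.5_0000790g0050 had means of 1.45 FPKM in WTR and 0.287 FPKM in CR, without overlap of their libraries. Others were close in FPKM as well, such as Nitab4.5_0002145g0030 with means of 8.05 FPKM in WTR and 5.4 FPKM in CR. In a fit of the TWTR and WTR libraries alone, 11 rises were also higher in TWTR than WTR, 4 were lower and 5 missed the threshold, beside 30.4% called (17.7% higher and 12.7% lower) among the 19772 models tested there. Of the falls, 7 were also lower in TWTR than WTR, 3 were higher, 9 missed the threshold and 1 was below the level tested. The 6 falls with WTR within 2-fold of CR, on FPKM + 1, were all among those 7. The 7 rises with WTR within 2-fold of CR, on FPKM + 1, were all among the 11. The 9 falls that missed the threshold there had means of 1.1 to 73.7 FPKM in TWTR and 1.22 to 50.8 FPKM in WTR, against 18.0 to 568 FPKM in CR. The 4 rises with an opposite difference had means of 20.3 to 1199 FPKM in WTR and 14.9 to 695 FPKM in TWTR, and in 3 of them every WTR library was above every TCR library. The interaction passed in 16 rises, all with a higher value, and in 15 falls, 14 with a lower value, beside 29.3% of all models tested; these models were picked for the TCR minus CR difference, which enters the interaction, so the count is partly built in.

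**Figure D3:**
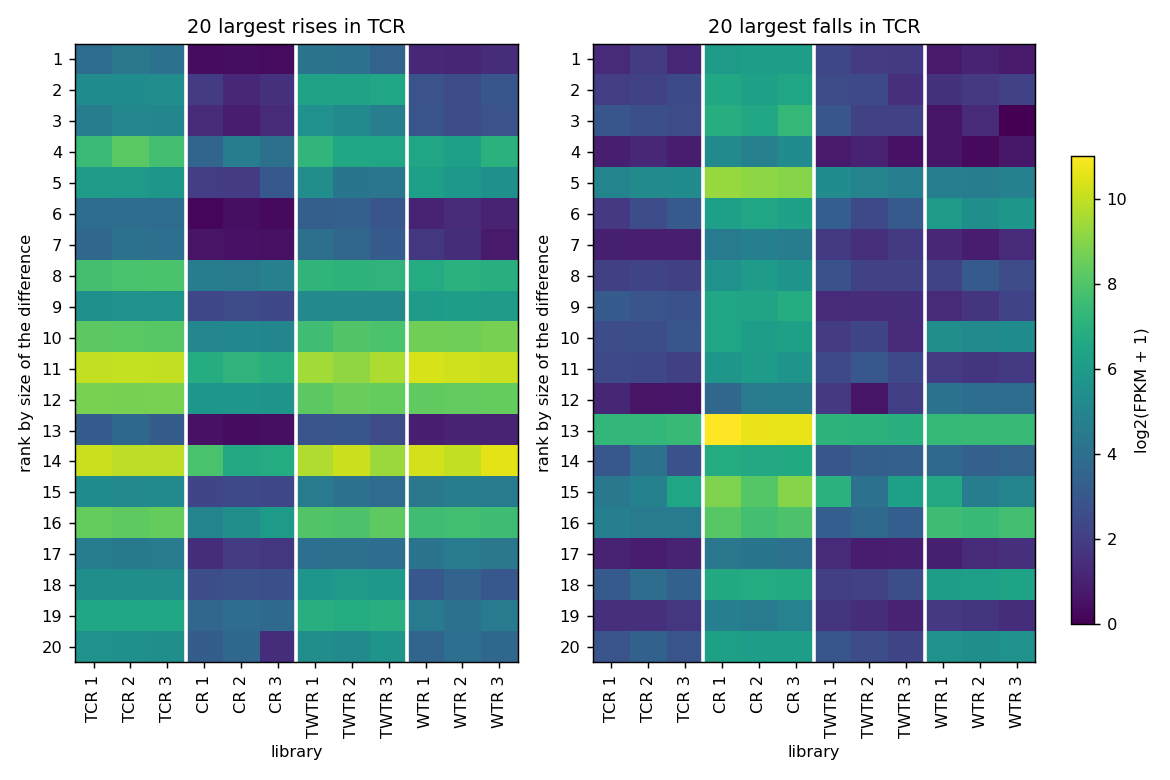
Colour gives log2(FPKM + 1) in each of the 12 libraries for the 20 largest rises (left) and the 20 largest falls (right) in TCR against CR, ranked from the top by the size of the difference. The CR columns are the darkest block in 19 of the 20 rises and the brightest in 19 of the 20 falls. By the choice of models this is partly built in. The WTR columns resemble CR in some rows and TCR in others.

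Some models were listed near 0 in one group. With limits chosen after the values were seen, 15 models lay below 1 FPKM in every TCR library and at 5 FPKM or more in every CR library, with CR means of 6.14 to 50.8 FPKM and a median of 8.54 FPKM. Of these 15, 7 were listed at exactly 0 in all TCR libraries, values described with the other listed zeros. The reverse held for 5 models, below 1 FPKM in every CR library and with TCR means of 7.27 to 16.9 FPKM. All 5 of these were higher in TWTR than WTR too, beside 17.7% of all models tested there, with median levels of 8.41 FPKM in TWTR and 1.23 FPKM in WTR. Of the 15, 9 were tested in TWTR against WTR, where 2 were lower, beside a background of 12.7%, and 0 higher, beside 17.7%. Among the 15, 7 stayed below 1 FPKM in every TWTR library and 6 in every WTR library.

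Models listed at exactly 0 were counted separately and given no fold. There were 20 models at 0 in all TCR libraries with 1 FPKM or more in each CR library, and 4 at 0 in all CR libraries with 1 FPKM or more in each TCR library. The highest of the first kind held 0, 0 and 0 FPKM in TCR against 78.27, 54.46 and 19.6 FPKM in CR, but also 36.95, 33.6 and 56.24 FPKM in TWTR and 0, 0 and 60.81 FPKM in WTR. A 0 thus stood beside a high value within one group, and a listed 0 of this model cannot be read as absence. A second, steadier model of this kind had 9.42, 10.2 and 10.3 FPKM in CR and was listed at 0 in all 9 other libraries. Of the 20, 8 were at 0 in every TWTR library and 11 in every WTR library. Of the 4, none was. The share of all models at 0 in every library of these groups was not computed. Applied to TWTR and WTR, the same rule gave 13 models at 0 in TWTR and 10 at 0 in WTR. The counts of 20 and 4 moved with the libraries used. The deepest library, CR replicate 2, listed 2437 models at 0, against 2966 and 3014 in the other CR libraries and 2982 to 3240 in TCR. Without it there were 28 models at 0 in TCR and 18 at 0 in CR. Without CR replicate 1 or CR replicate 3 the models at 0 in CR numbered 9 and 11. Over all libraries left out in turn the counts were 28 to 35 and 9 to 18. Leaving out a library loosens the rule, so the counts could not become smaller. The part of depth in the size of the change was not tested.

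The 20 most abundant models together held a larger share of the FPKM sum in TCR than in CR. By count of calls, however, the class of 100 FPKM or more leaned to falls, with 23.7% of 2250 models higher and 32.8% lower. Of the 20 models with the highest mean over the 6 libraries, 11 were higher, 7 were lower and 2 did not pass, beside 18.7% higher and 21.9% lower among all models tested. Their summed level was 96740.8, 97161.6 and 95876.9 FPKM in TCR against 72586.8, 65532.8 and 69624.3 FPKM in CR, or 8.51% ± 0.0324 of the library sum in TCR and 6.06% ± 0.278 in CR (SD, n = 3 each; exact two-sided permutation p 0.1, the smallest that 3 libraries against 3 can give). Their group means rose by 38313 FPKM in sum over the 11 rises and fell by 10540 FPKM over the 7 falls. Of these rises, 11374 FPKM was in the first model by rank and 6837 FPKM in the seventh. The most abundant model of all stood at 15635.64, 16500.11 and 16473.53 FPKM in TCR against 7025.63, 3097.33 and 4364.1 FPKM in CR, a ratio of means of 3.36 (limma adjusted p 0.0053). The seventh, whose gene number is 2 steps away on the same scaffold, had the largest rise of the 20, with 8789.48, 8877.9 and 8530.01 FPKM in TCR against 1893.59, 1816.54 and 1975.72 FPKM in CR (ratio of means 4.61, limma adjusted p 5.67e-07). Neither of this pair passed between TWTR and WTR. Going the other way, the fifth was the most abundant model in every CR library, with 3461.19, 3544.47 and 3437.43 FPKM in TCR against 8045.88, 7159.56 and 8221.84 FPKM in CR (log2 difference -1.16, limma adjusted p 8.02e-06), and it was higher in TWTR than WTR. With quantile normalization the counts among the 20 were 10 higher and 9 lower.

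**Figure D4:**
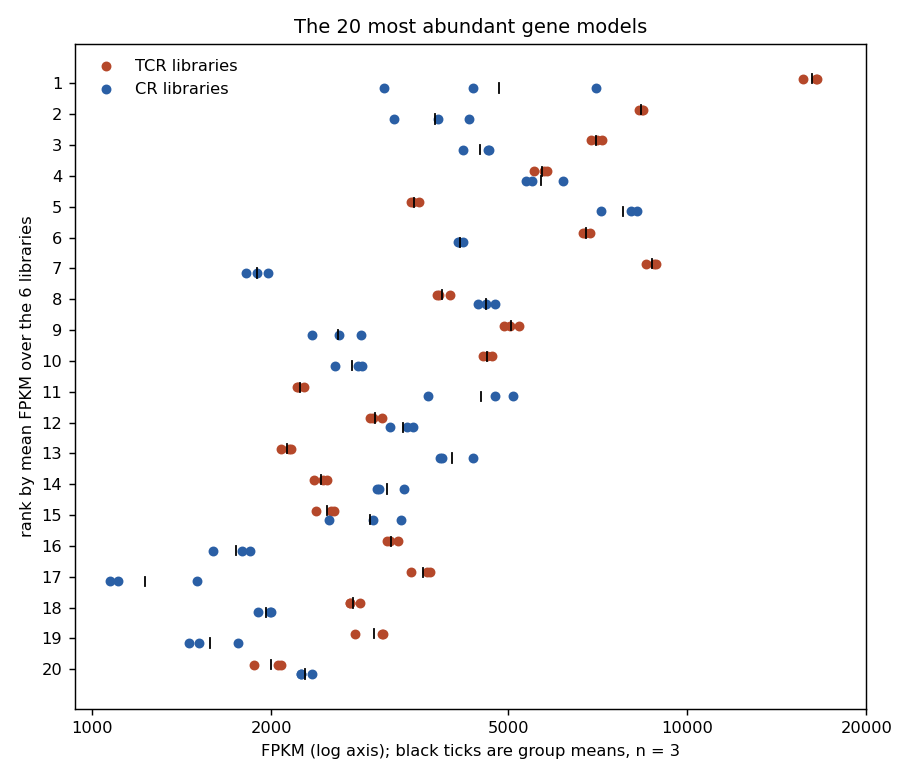
Points are the FPKM of single libraries on a log axis for the 20 models with the highest mean over TCR (red) and CR (blue), ranked from the top, with black ticks at the means of 3 libraries. In 11 models the red points lie to the right and pass the test, and the blue points of the first model spread from 3097.33 to 7025.63 FPKM.

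Fewer models reached a given level in TCR than in CR. In TCR 19620 ± 35.1 models of the whole table reached 1 FPKM and in CR 19779 ± 29.9, and 15551 ± 71.7 against 15763 ± 13.7 reached 5 FPKM (SD, n = 3 each; exact two-sided permutation p 0.1 for both). Library values did not overlap for either measure. In the other libraries the 20 models held 8.98% of the sum in TWTR and 7.93% in WTR, and 19585 models reached 1 FPKM in TWTR and 19444 in WTR, so there the group with the larger share had more models at that level. All models outside the 20 most abundant together held 1038390 ± 7864 FPKM in TCR and 1072800 ± 10994 in CR (SD, n = 3 each).

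The spread between replicates was described as well. The coefficient of variation between libraries was larger in CR than in TCR for 18 of the 20 most abundant models, with a median of 2.47% in TCR and 7.28% in CR. Among the 2250 models at 100 FPKM or more the medians were 3.37% in TCR and 6.30% in CR, with the larger value in CR for 75.7%, and over all models tested 7.62% in TCR and 9.40% in CR, with the larger value in CR for 58.8%. No test was made of these spreads. A single library lay 2-fold or more above both others of its group in 67 to 80 models, and 2-fold or more below both in 58 (CR replicate 2) to 121 (CR replicate 1).

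The same gene models were then followed in TWTR and WTR, which share no library with TCR and CR and were fitted apart. Of the 3700 models higher in TCR that were tested in both fits, 1424 were higher in TWTR than WTR, which is 38.5% of that list and 41.1% of the 3462 models higher in TWTR. The background share of models higher in TWTR was 17.7%. Another 320 were lower in TWTR, or 8.65% of the first list, beside a background of 12.7% lower in TWTR. These 320 were 12.8% of the 2509 models lower in TWTR. Of the 4215 models lower in TCR, 1321 were lower in TWTR as well (31.3% of the first list, 52.7% of the second) and 524 were higher (12.4% and 15.1%). For shares of the TWTR lists the backgrounds are those of TCR against CR, 18.7% higher and 21.9% lower. The shares were larger among larger differences. Among the 577 models at least 2-fold higher in TCR 56.2% were also higher in TWTR, and among the 912 at least 2-fold lower 44.8% were also lower. At 4-fold the shares were 57.8% of 64 and 49.7% of 151. The opposite shares, for rises and falls, were 9.01% and 15.6% at 2-fold and 10.9% and 15.2% at 4-fold. Models that missed the threshold in TWTR against WTR made up 52.9% of all rises and 31.3% of the 4-fold rises. For falls these were 56.2% and 35.1%, so calls in either direction were more frequent among larger differences. The call depends on level and spread, which a model may have in common between the fits, and shares at matched level were not computed.

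The TWTR minus WTR differences of these models were smaller than their TCR minus CR differences. Models 2 to 4-fold higher in TCR, whether or not they passed, had a median TWTR minus WTR log2 difference of 0.53 (middle 50% from 0.033 to 1.07, n = 579), and those 4-fold or more higher had 0.53 (-0.19 to 1.78, n = 78). Models 2 to 4-fold lower in TCR had a median of -0.38 (-0.97 to 0.17, n = 820), and those 4-fold or more lower had -0.57 (-1.996 to 0.29, n = 166). Over the 19439 models tested in both fits, Pearson r was 0.333 and Spearman rho 0.293; models are not independent replicates, and this is a description. The classes were chosen by a large TCR minus CR difference, so smaller values in other libraries are bound to follow in part from the choice.

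**Figure D5:**
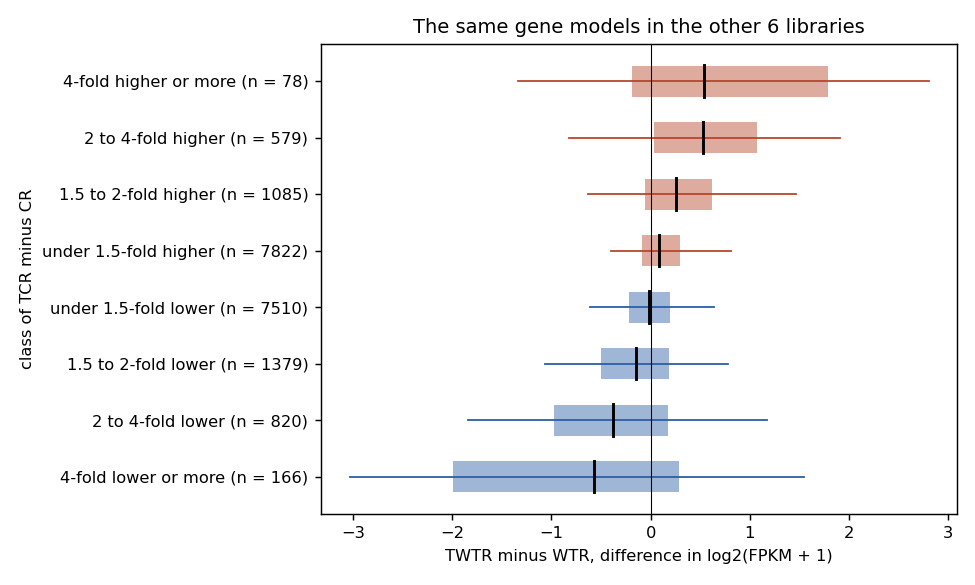
Models are grouped by their TCR minus CR difference (rows, with the number of models), and the x axis gives the TWTR minus WTR difference in log2(FPKM + 1); boxes span the middle 50%, lines the middle 90%, and black ticks are medians. The medians go from -0.57 in the row of 4-fold falls to 0.53 in the row of 4-fold rises, and in every row the line crosses 0.

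In single libraries the typical level of these lists ran as follows. The median FPKM of the 587 models at least 2-fold higher in TCR was 32.96, 34.51 and 34.3 in TCR and 11.66, 11.54 and 11.16 in CR, by choice, and 30.54, 29.77 and 30.62 in TWTR and 19.51, 17.77 and 18.66 in WTR. For the 1014 models at least 2-fold lower it was 7.38, 8.08 and 7.72 in TCR and 26.765, 23.115 and 24.13 in CR, and 7.51, 8.03 and 7.41 in TWTR and 10.335, 9.365 and 10.255 in WTR. In both lists the medians of the WTR libraries lay between those of the CR libraries and those of TCR and TWTR. For comparison, the median over all models tested lay at 16.655 to 16.74 FPKM in TCR and at 17.035 to 17.265 FPKM in CR.

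Gene numbers in the identifiers give the order of models along a scaffold, and the models tested lay on 3032 scaffolds. Among 11828 pairs of tested models with consecutive numbers, 522 pairs were both higher in TCR, 658 both lower and 810 opposite. The neighbour of a model that was higher was itself higher in 23.6% of cases, beside a background of 18.7%, and the neighbour of a model that was lower was lower in 25.8%, beside 21.9%. At 5, 10 and 20 steps apart the share for rises of any size was 20.5%, 21.7% and 16.7%, the last below the background. For falls of any size it was 24.2%, 22.9% and 22.1%. For differences of at least 2-fold the shares stood further from the background. The neighbour of such a rise was such a rise in 8.40% (28 pairs), beside 2.94% of all models tested, and the neighbour of such a fall such a fall in 9.29% (50 pairs), beside 5.08%. At 10 steps apart, with 4467 pairs, the shares were 3.14% (4 pairs) and 4.60% (10 pairs). At 5 steps they were 1.53% (3 pairs) and 6.19% (22 pairs), and at 20 steps 1.90% (1 pair) and 6.52% (6 pairs). The share for falls thus did not go down steadily with distance. Runs of 3 consecutive models with 2-fold rises occurred on 4 scaffolds and runs of 3 with 2-fold falls on 4, and no longer run was found. One run of falls held group means of 3.87 to 56 FPKM in TCR against 9.31 to 327 FPKM in CR. One run of rises held 17.1 to 204 FPKM in TCR against 3.74 to 37.9 FPKM in CR. Its 3 models were also higher in TWTR than WTR, while the other runs of rises had 2, 1 and 1 such models. Of the runs of falls, one had 2 models lower in TWTR than WTR, one had 1 lower, and each of the other two had 1 higher. Among the 20 largest falls 3 pairs and among the 20 largest rises 1 pair were consecutive; Nitab4.5_0000218g0070 belonged to one of them, and its neighbour stood at 1.82, 1.76 and 2.33 FPKM in TCR against 25.71, 22.54 and 28.05 FPKM in CR. Neighbouring models can be tandem copies whose reads the authors' counting may have split or shared, which cannot be told apart from separate changes in these values.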

How the data were processed

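Per the labels' protocols, the authors extracted root RNA with TRIzol, sequenced on a DNBSEQ-T7 instrument, cleaned reads with fastp, aligned them with STAR, assembled transcripts with StringTie2 and compared them with known genes by Cuffcompare. The values are the authors' deposited FPKM, per the file headers; genome build, FPKM program and versions are not given in the sources used here. FPKM divides by length and library total, so very abundant transcripts shift all others. The design text names DESeq2 for the authors' calls; it needs counts and was not run.

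Groups came from sample titles. On log2(FPKM + 1), limma 3.58.1 in R 4.3.3 (trend and robust options, two-sided) was fitted to TCR and CR alone, to TWTR and WTR alone, each for models averaging 1 FPKM or more over its 6 libraries, and to all 12 libraries for the interaction. Log2 differences on this scale understate changes of low models. Benjamini-Hochberg adjusted p under 0.05 was the threshold. Identifiers were given to the 2 largest rises and 2 largest falls that passed, with at least 5 FPKM on average in the higher group, no 0 and no overlap. The members, lists and rules were chosen with earlier results of these data known. The gene lists by product name could not be applied. Low values give relative depth only, so no counting intervals were computed. Alternatives were pseudocounts, filters, scalings, the replicate number as a term, limma without its options, a fit of all 12 libraries, and leaving out each library. The fits were also run on simulated data with known changes in TCR alone. Far fewer models were changed there than were called here, so the rate of false calls here cannot be read from it.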

Additional observations from a re-analysis of the deposited data

Results flagged for a closer look

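The TCR minus CR difference differed from the TWTR minus WTR difference, by the interaction term in limma over 12 libraries (adjusted p under 0.05), in 2301 models with a higher value (11.5% of those tested) and 3542 with a lower value (17.8%). The order of these counts depended on scaling: median-of-ratios scaling gave 2773 higher and 3063 lower, and quantile normalization 3044 higher and 2797 lower. Of the models given by identifier, Nitab4.5_0000919g0090 had an interaction of -5.757 on the log2 scale (limma adjusted p 3.42e-08), Nitab4.5_0000218g0070 one of -4.513 (limma adjusted p 3.32e-06) and Nitab4.5_0000790g0050 one of 1.14 (limma adjusted p 0.00712, or 0.0951 with a pseudocount of 5). Over all alternatives that left out a library the limma adjusted p of the last stayed at or below 0.021. The models given by identifier were picked for the TCR minus CR difference, which enters the interaction, so their interactions are partly built in. Groups of 3 libraries are too small for a search for single outlying libraries.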

How the results depend on the processing

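The counts of 3720 higher and 4368 lower models in TCR minus CR stayed within 1.5 times under every alternative run. Leaving out a library gave 2863 to 3486 higher and 3642 to 4128 lower, 577 to 626 at least doubled and 952 to 1045 at least halved. A pseudocount of 5 gave 339 doubled and 576 halved models. The 4 identified models passed under every alternative, with log2 differences on leaving out a library of 3.67 to 3.91 for Nitab4.5_0000790g0050, 3.60 to 3.92 for Nitab4.5_0000028g0320, -4.79 to -4.48 for Nitab4.5_0000919g0090 and -4.38 to -4.13 for Nitab4.5_0000218g0070. The interaction of Nitab4.5_0000028g0320 turned to -0.35 (limma adjusted p 0.041) with a pseudocount of 5 and to -0.027 without CR replicate 2; over libraries left out it ran from -0.027 to 0.30. That of Nitab4.5_0000790g0050 was 0.46 (limma adjusted p 0.0951) with a pseudocount of 5. Models at 0 in one group, asked to reach 5 FPKM in each library of the other, numbered 7 (at 0 in TCR) and 0 (at 0 in CR); leaving out a library gave 28 to 35 and 9 to 18. The TCR minus CR difference in models detected was -212 at 5 FPKM, against -158 at 1 FPKM. The share held by the 100 most abundant models of each library differed by 2.38 percentage points, against 2.03 for 10. These models were ranked within each library, unlike the 20 models fixed over the 6 libraries, whose share differed by 2.45. Replicates share only a number: deviations of same-numbered TCR and CR libraries correlated at -0.012, -0.0024 and 0.032. With the replicate number as a block, 3330 models were higher and 3964 lower. The median SE was 0.194 for models of 1 to 5 FPKM and 0.0641 at 100 FPKM or more, and the part of depth in this was not tested.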
